A study of Homo sapiens with 6 samples.

Results

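The clustered protocadherin genes lie on the long arm of human chromosome 5 as 3 tandem arrays, named alpha, beta and gamma. Accessible chromatin over these arrays was followed in lists of ATAC-seq peaks from ventricular-like cardiomyocytes at day 15 of differentiation from the H9 human embryonic stem cell line. ATAC-seq uses the Tn5 transposase to insert adapters into open chromatin, and a peak is a stretch where insertions pile up. There were 3 control libraries and 3 libraries of cells in which ZNF436, a zinc finger protein of the KRAB family, was knocked down by a method the labels do not state, and the replicates of each condition were separate differentiations of the same line. Members were the peaks whose midpoint fell in chr5:140150001-140400000 (alpha), chr5:140420001-140640000 (beta) or chr5:140700001-140900000 (gamma) of build hg19. They numbered 156 of 478912 peaks over the 6 lists and merged into 36 of 157560 sites, of which 16 lay in alpha, 6 in beta and 14 in gamma.

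Clustered protocadherins are cadherin-like proteins of the cell surface, best known for giving single neurons a molecular identity through the combination of isoforms each cell makes. Every variable exon has a promoter of its own. In alpha and gamma the chosen variable exon is spliced to constant exons shared by the whole array, whereas each beta gene is a single exon. Most variable promoters carry a conserved element with the core CGCT, and promoter choice involves CTCF, cohesin and distal enhancers. The locus is a known target of SETDB1, a methyltransferase that writes the repressive mark H3K9me3, and KRAB zinc finger proteins are known to bring SETDB1 to DNA through the corepressor TRIM28. Most of what is known of these genes comes from the nervous system.

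The promoters show what sets the arrays apart in sequence. RefSeq lists 53 of these genes, and its promoter table (GRCh38.p14, 250 bases before to 50 after each start) held 47 of them: 13 of 15 in alpha, 14 of 16 in beta and 20 of 22 in gamma, with 52 entries in all. PCDHA3, PCDHA13, PCDHB6, PCDHB11, PCDHGA12 and PCDHGC5 were not matched. The peaks are on hg19 and the promoters on GRCh38.p14, so no site below was assigned to a gene. The following stretches, from 3 genes of each array, surround the version of the CGCT element that recurred there. Capitals mark the recurrent motif, all on the plus strand and all before the start site.
PCDHA1: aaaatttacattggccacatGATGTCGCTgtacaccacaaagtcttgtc
PCDHA2: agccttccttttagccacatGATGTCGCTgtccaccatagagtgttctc
PCDHA12: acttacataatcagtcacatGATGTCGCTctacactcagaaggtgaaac
PCDHB2: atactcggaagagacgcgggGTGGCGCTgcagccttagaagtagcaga
PCDHB3: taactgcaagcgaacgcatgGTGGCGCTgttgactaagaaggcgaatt
PCDHB15: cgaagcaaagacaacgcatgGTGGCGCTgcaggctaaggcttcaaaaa
PCDHGA2: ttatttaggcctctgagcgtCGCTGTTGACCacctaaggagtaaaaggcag
PCDHGA3: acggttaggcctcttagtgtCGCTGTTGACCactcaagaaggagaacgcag
PCDHGA10: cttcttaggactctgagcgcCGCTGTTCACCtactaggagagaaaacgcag

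GATGTCGCT was present in 9 of 13 alpha promoters, in no beta or gamma promoter, and in 0.105% of all 35116 promoter entries. GTGGCGCT was present in 13 of 14 beta promoters against 1.15% of all entries. The gamma motif, CGCTGT followed after 3 bases of any kind by CC, was present in 17 of 25 gamma entries and 6 of 13 alpha promoters against 1.41% of all. These 3 motifs were chosen after the promoters had been read, were searched on both strands and each contain CGCT, so their counts are descriptions. Their median distance before the start site was 53 bases in alpha, 65 in beta and 62 in gamma. The 4-letter core CGCT alone was in 51 of 52 protocadherin entries, but also in 70.0% of all entries. The core of the CTCF motif (CCAC, any base, AGG, any base, GGCAG, on either strand) was found in 0 of 52 entries and in 0.0626% of all, which says only that these exact letters are not in these windows.

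Base composition was compared between the C-type genes and the other variable genes. The C-type genes are the last variable genes of alpha (PCDHAC1 and PCDHAC2) and gamma (PCDHGC3, PCDHGC4 and PCDHGC5). Median G + C was 36.0% over the other alpha promoters, 40.8% in beta and 43.7% over the other gamma entries, all under the 58.7% of all promoters. The 5 C-type entries ranged from 59.0% to 66.0%, above all other alpha promoters (33.7% to 40.3%) and all beta promoters. The other gamma entries ranged from 32.3% to 65.0% and overlapped them, since further start sites of PCDHGB5 and PCDHGB6 had 60.0% and 65.0%. A further start site of PCDHGB4, at 58.7%, lay just under the C-type range. C-type entries held 15 to 27 CpG dinucleotides per promoter (median 23), against 3 to 9 in the other alpha promoters (median 7), 5 to 12 in beta (median 7.5) and 2 to 25 in the other gamma entries (median 7.5), with a median of 14 over all promoters. The last 100 bases before the start site make the contrast visible for 1 ordinary gene and 2 C-type genes, with each CpG in capitals.
PCDHA1: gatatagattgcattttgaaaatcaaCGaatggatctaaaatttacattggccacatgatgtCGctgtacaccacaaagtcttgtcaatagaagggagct
PCDHAC1: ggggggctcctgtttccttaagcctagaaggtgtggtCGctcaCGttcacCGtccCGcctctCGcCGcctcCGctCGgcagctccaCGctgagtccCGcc
PCDHGC3: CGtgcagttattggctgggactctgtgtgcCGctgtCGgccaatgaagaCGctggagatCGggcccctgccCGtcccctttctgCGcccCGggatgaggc

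These stretches held 2 CpG in PCDHA1, 10 in PCDHAC1 and 8 in PCDHGC3. Beta has no C-type gene, and its promoters lay between 33.3% and 46.3% G + C.

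**Figure D1:**
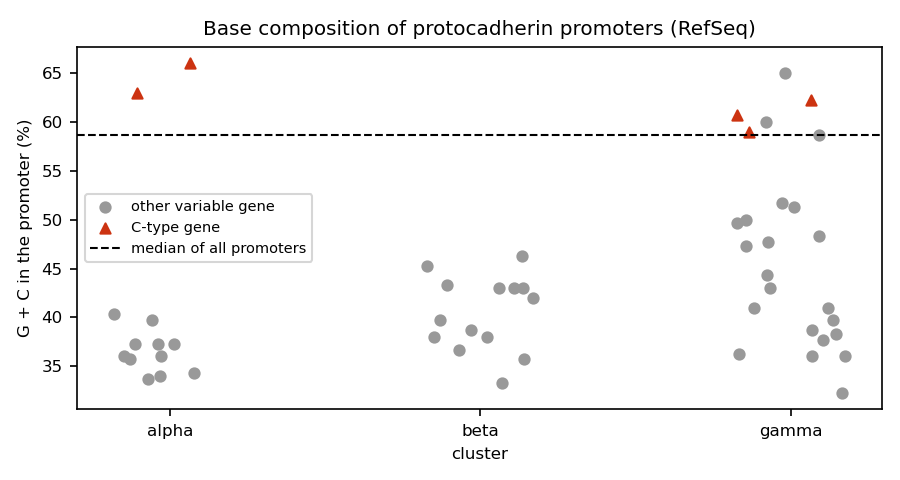
G + C content (percent, vertical axis) of the 52 RefSeq promoter entries of the 47 matched genes, by array, with C-type genes as triangles and all other variable genes as circles; horizontal scatter only separates points. The 5 C-type entries lie between 59.0% and 66.0%, above every other alpha and beta promoter but overlapping other gamma entries, which reach 65.0%, and the dashed line is the 58.7% median of all promoters.

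The deposited lists differed in length between the groups, which bears on every value given here. They held 50719 to 68342 peaks in control and 87871 to 115864 in knockdown, a ratio of means of 1.773 for peaks and 1.852 for covered bases. Read counts are not part of the lists, the sequencing depth behind them is unknown, and list length, depth and knockdown cannot be told apart. Values are therefore given both as found and as a share of each list. With 3 libraries against 3 an exact permutation test cannot give a p under 0.1. Neither the cardiac identity of the cells nor the loss of ZNF436 was checked here, since the lists hold no RNA and no hg19 annotation was used.

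More peaks were called over all 3 arrays in knockdown, but fewer than the longer lists would give at an even rate. Together the arrays held 22, 19 and 23 peaks in control replicates 1 to 3 and 31, 33 and 28 in knockdown replicates 1 to 3. No knockdown library fell to the level of a control library, with 21.3 ± 2.08 (SD, n = 3) against 30.7 ± 2.52 and a ratio of 1.438 (exact permutation test, two-sided, p = 0.1). Over 10129 windows of the genome (the 3 arrays and tiles of 200 kb), 58.1% had more peaks in every knockdown library than in any control library and 0.247% had fewer. As a share of the list the order turned: 4.34, 3.54 and 3.37 of every 10000 control peaks lay in the arrays against 2.68, 3.22 and 3.19 of knockdown peaks. The shares did not overlap either, at a ratio of 0.808 (exact permutation test, two-sided, p = 0.1), where 13.8% of windows had a lower and 19.8% a higher share in all knockdown libraries.

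Alpha held the clearest gain in number. It had 8, 7 and 10 control peaks and 13, 15 and 12 knockdown peaks, or 8.33 ± 1.53 against 13.3 ± 1.53 (SD, n = 3), a ratio of 1.6 with no overlap (exact permutation test, two-sided, p = 0.1). Its share of the list was 1.58, 1.30 and 1.46 per 10000 peaks in control and 1.12, 1.46 and 1.37 in knockdown, and here the groups overlapped (ratio 0.909, exact permutation test, two-sided, p = 0.5). The gain in alpha was thus of about the size of the gain of the whole list, whose ratio was 1.773.

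Beta was nearly empty in every library. It held 2, 2 and 3 control peaks and 4, 5 and 3 knockdown peaks, so that 1 knockdown library equalled the highest control library (ratio 1.714, exact permutation test, two-sided, p = 0.2). Its share of the list was 0.402 ± 0.034 in control and 0.392 ± 0.084 in knockdown per 10000 peaks (SD, n = 3), a ratio of 0.974 (exact permutation test, two-sided, p = 0.8).

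Gamma had the most peaks in control and the smallest relative gain. Its counts were 12, 10 and 10 in control and 14, 13 and 13 in knockdown, which did not overlap (10.7 ± 1.15 against 13.3 ± 0.577, SD, n = 3, ratio 1.25, exact permutation test, two-sided, p = 0.1). Per 10000 peaks it held 2.37, 1.86 and 1.46 in control and 1.21, 1.27 and 1.48 in knockdown. Control replicate 3, the longest control list, was just below knockdown replicate 3 on this scale, so the shares overlapped (ratio 0.695, exact permutation test, two-sided, p = 0.2). Some gamma sites held several peaks in 1 library, and counted as sites the array had 9, 8 and 9 in control and 13, 12 and 11 in knockdown, a ratio of 1.385. This count of sites was added after the values had been seen. Over the 3 arrays together, sites called numbered 19, 17 and 22 in control and 30, 31 and 25 in knockdown, a ratio of 1.483 (exact permutation test, two-sided, p = 0.1).

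Set against windows of the genome, gamma was rich in peaks, alpha less so and beta was not. In control the mean density was 5.33 peaks per 100 kb in gamma, 3.33 in alpha and 1.06 in beta. These were the 92.2nd, 83.4th and 51.1st percentile of 15480 windows whose median was 1.0. Windows without any peak, assembly gaps included, count among the 15480, which raises the percentiles. In knockdown the densities were 6.67, 5.33 and 1.82, at percentiles 86.0, 80.3 and 41.4, beside a median that had moved to 2.33. Each array was denser in knockdown than in control and yet stood lower among the windows.

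**Figure D2:**
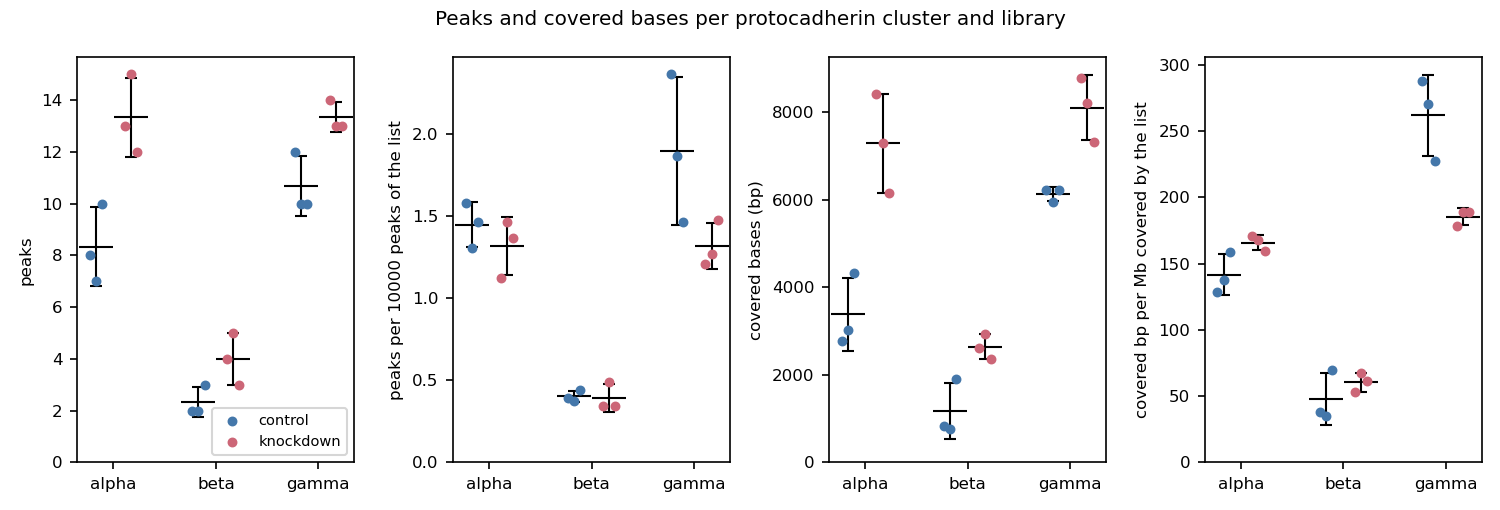
From left to right, peaks, peaks per 10000 peaks of the list, covered bases (bp) and covered bp per Mb covered by the list, each for the 3 arrays; points are libraries (control blue, knockdown red), bars the mean and SD of 3 libraries. Every panel starts at 0, and gamma is higher in knockdown in the panels of raw values (8791, 8213 and 7314 covered bp against at most 6225) and lower in the panels of list shares, with 1 overlapping pair of libraries in the share of peaks.

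Covered bases were higher in knockdown in all 3 arrays, with the smallest ratio in gamma. Alpha peaks covered 2780, 3038 and 4332 bp in control and 8416, 7308 and 6154 bp in knockdown, a ratio of 2.155. Beta peaks covered 828, 769 and 1913 bp in control and 2616, 2935 and 2365 bp in knockdown, a ratio of 2.255. Gamma peaks covered 6220, 5960 and 6225 bp in control and 8791, 8213 and 7314 bp in knockdown, a ratio of 1.321. In each of the 3 arrays every knockdown library exceeded every control library (exact permutation test, two-sided, p = 0.1 for each), as did 88.0% of the 10129 windows, with 0.346% the other way.

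As a share of all covered bases, alpha and gamma went opposite ways. Alpha held 128, 138 and 158 bp per Mb of covered sequence in control and 170, 168 and 159 in knockdown, higher in knockdown with no overlap (ratio 1.171, exact permutation test, two-sided, p = 0.1). Gamma held 287, 270 and 228 bp per Mb in control and 178, 189 and 189 in knockdown, lower with no overlap (ratio 0.708, exact permutation test, two-sided, p = 0.1). Among the windows 28.0% had a higher and 14.4% a lower share in every knockdown library, so both patterns were common along the genome. Beta overlapped at 38.3, 34.9 and 70.0 against 53.0, 67.4 and 61.2 bp per Mb (ratio 1.269, exact permutation test, two-sided, p = 0.4). Control replicate 3 was above all 3 knockdown libraries there, while the other control libraries were below them.

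Lists cut to the same number of peaks were compared as well, which does not make their covered bases equal. With each list reduced to its 50719 highest-scoring peaks, alpha held 8, 7 and 7 control peaks against 5, 10 and 9 in knockdown, and gamma 12, 9 and 7 against 6, 8 and 9. The peak counts then overlapped in every array, and the ratio of gamma turned to 0.821 (exact permutation test, two-sided, p = 0.5). Covered bases stayed higher in knockdown with no overlap in alpha, at 2780, 3038 and 3934 against 4334, 6022 and 5440 bp (ratio 1.62), and in gamma, at 6220, 5805 and 5442 against 6724, 6935 and 6489 bp (ratio 1.153, exact permutation test, two-sided, p = 0.1 for both). The gamma share of covered bases stayed lower, at a ratio of 0.83 (exact permutation test, two-sided, p = 0.1), while that of alpha overlapped between groups (ratio 1.181, exact permutation test, two-sided, p = 0.3). The 3 arrays together covered 1.374 times the control bases in the cut lists but held 0.996 times the control share. The cut lists as a whole thus also covered more in knockdown. How many windows were without overlap in the cut lists was not counted.

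The difference between arrays was tested on the ratio of one array to another within a library, which needs no scaling to the list but can still move with its length. On peaks, 0.5 was added to each count. The log2 ratio of alpha to gamma was 0.34 higher in knockdown, that of beta to gamma 0.35 higher, and that of alpha to beta 0.01 lower. All 3 pairs overlapped between groups, with an exact permutation p = 0.3, p = 0.3 and p = 1.0, adjusted over the 3 pairs to 0.45, 0.45 and 1.0. On covered bases, a measure added after the values had been seen, alpha covered 0.447, 0.510 and 0.696 of the gamma bases in control and 0.957, 0.890 and 0.841 in knockdown. These plain ratios did not overlap. The log2 differences and tests on covered bases were taken with 0.5 kb added to each array, so they are not those of the plain ratios. For alpha over gamma the log2 difference was then 0.64, again with no overlap (exact permutation test, two-sided, p = 0.1, adjusted over the 3 pairs to 0.3). Beta covered 0.133, 0.129 and 0.307 of the gamma bases in control and 0.298, 0.357 and 0.323 in knockdown, which overlapped. With 0.5 kb added the log2 difference was 0.60 (exact permutation test, two-sided, p = 0.2, adjusted 0.3). Alpha covered 3.357, 3.951 and 2.265 times the beta bases in control and 3.217, 2.49 and 2.602 times in knockdown, with overlap. With 0.5 kb added its log2 difference was 0.04 (exact permutation test, two-sided, p = 0.9). The added 0.5 kb is large beside the 769 to 1913 bp of beta in control, so the sign of that difference can depend on it. In the lists of equal length the ratio of alpha to gamma was 0.447, 0.523 and 0.723 in control and 0.645, 0.868 and 0.838 in knockdown, which overlapped.

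A fit over all windows placed the arrays among the genome. It used limma on log2 shares of peaks per list, with 0.5 added to each count, and called 3.97% of the 10129 windows higher and 5.14% lower in knockdown at a Benjamini-Hochberg threshold of 0.05. None of the 3 arrays was called. Gamma was lowest, with a log2 change of -0.52 ± 0.19 (SE) and a limma Benjamini-Hochberg adjusted p = 0.106, at the 12th percentile of all windows. Alpha changed by -0.17 ± 0.18 (adjusted p = 0.552) and beta by -0.17 ± 0.28 (adjusted p = 0.736) in the same limma fit, at percentiles 33.8 and 34.4. The median window changed by 0.02.

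Gamma crossed the threshold when covered bases were fitted in place of peaks. Its share of covered bases then fell by 0.52 ± 0.12 (SE, log2), with a limma Benjamini-Hochberg adjusted p = 0.00812, in a fit that called 11.6% of windows lower and 6.83% higher. Alpha and beta changed by 0.13 and 0.08 in that fit and were not called (adjusted p = 0.488 and 0.792). The fit of covered bases added 0.5 kb to every window before scaling to the list, which weighs most where few bases are covered, as in beta. Without it the beta share of covered bases had a ratio of 1.269, with overlapping groups. On peaks, gamma also passed without control replicate 3, at -0.69 (limma adjusted p = 0.0302, with 6.65% of windows called lower), whereas without control replicate 1 it was -0.35 (limma adjusted p = 0.284). The 1 Mb bin with all 3 arrays fell by 0.48 ± 0.13 (SE, log2), with a limma adjusted p = 0.0138, where 10.2% of bins were called lower. The arrays span only 670 kb of that bin, so its change includes sequence outside them. The 3 arrays together were not fitted alone. Without scaling to the list the direction was the other way: gamma changed by 0.31 (limma adjusted p = 0.185) and alpha by 0.66 (limma adjusted p = 0.0247), beside a median window of 0.85 and 61.4% of windows called higher.

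**Figure D3:**
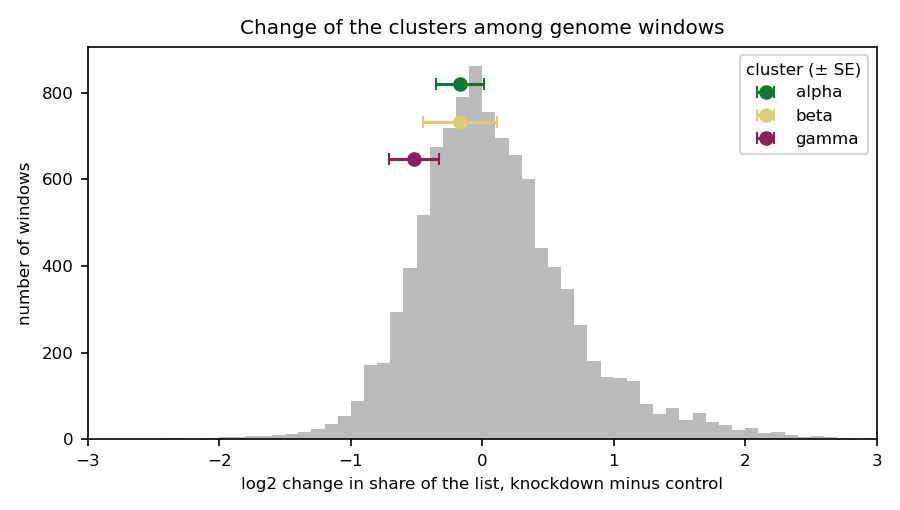
Histogram of the log2 change in share of the list (knockdown minus control, horizontal axis) over 10129 windows, in bins of 0.1, with the number of windows on the vertical axis; the height of the 3 points carries no value. Points are the arrays with their SE; gamma lies at -0.52, alpha and beta both at -0.17, all left of the median of 0.02. Windows beyond 3 on either side are not drawn.

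Accessible sites of gamma were crowded at its far end. Of 14 gamma sites 11 lay in the last 50 kb of the window, and this end held 81.9% of the gamma bases covered in control and 77.7% in knockdown, where an even spread would give 25%. Of 16 alpha sites 8 lay in the last 50 kb, but with 20.4% of covered bases in control and 33.2% in knockdown, beside 20% for an even spread. Beta had 1 of 6 sites there, and its 3 sites called in more than 1 library were centred 0.3, 10.9 and 54.3 kb from the window start. By gene order the C-type genes are the last variable genes of alpha and gamma, and beta has none, but the position of the sites relative to those genes was not analysed here.

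Long parts of the arrays held no peak. In steps of 10 kb, 15 of 25 in alpha, 16 of 22 in beta and 12 of 20 in gamma were without a peak in any of the 6 libraries (60.0%, 72.7% and 60.0%). Over the genome 68.9% of such steps were empty, assembly gaps included, so this is common elsewhere too. The first alpha site lay 36.9 kb into the window. No site called in all 6 libraries was found over 225.2 kb, chr5:140474573-140699810, which takes in most of beta and the gap before gamma. How common stretches of this length are over the genome was not counted. Inside this stretch, the only peaks were 3 beta sites, each called in 1 knockdown library and in no other.

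**Figure D4:**
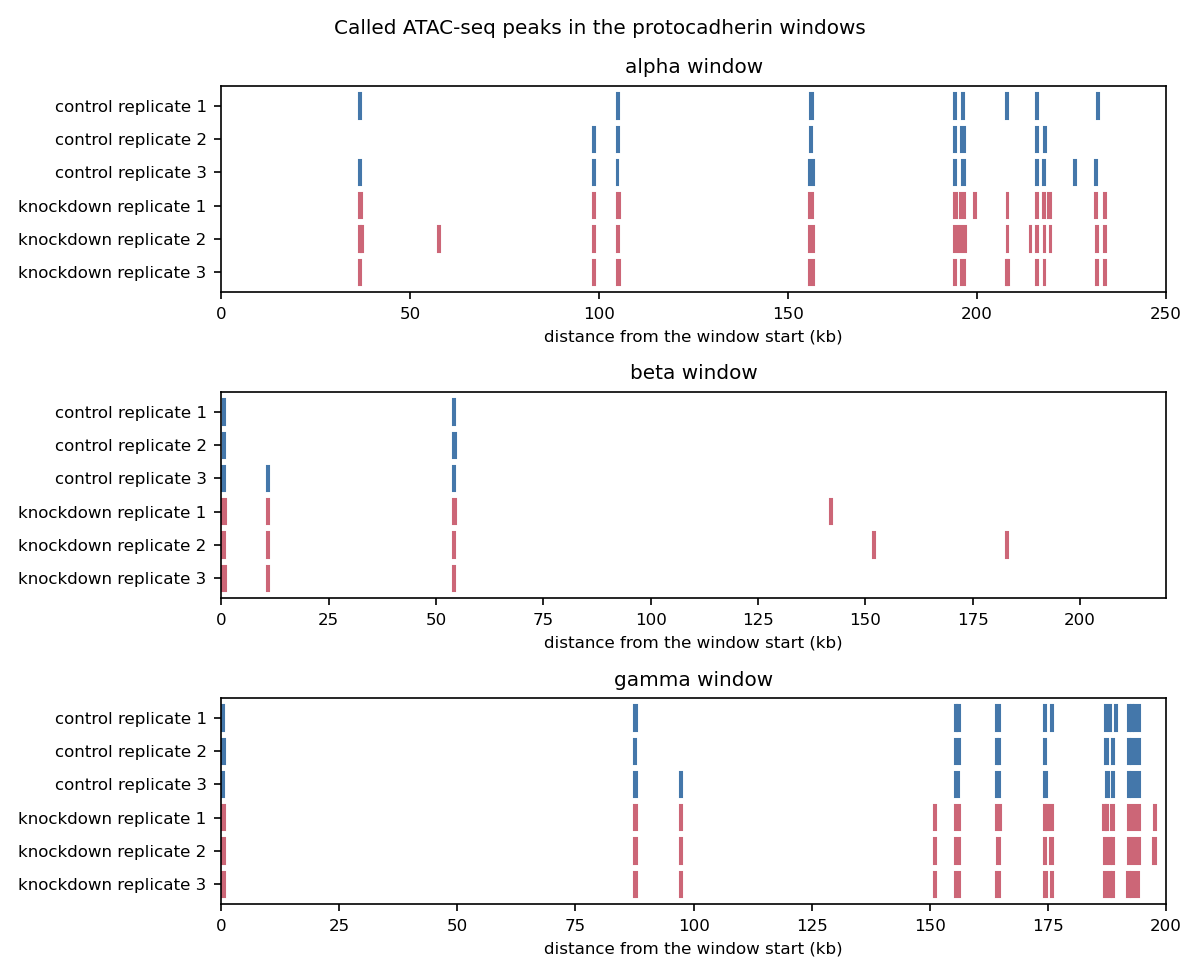
Every called member peak by library (rows, control blue, knockdown red) along the alpha, beta and gamma windows, as distance from the window start in kb; peaks under 0.5 kb are drawn at 0.5 kb. Peaks crowd toward the right end of gamma, 8 of 16 alpha sites lie in the last 50 kb, most of beta is empty, and 3 beta peaks beyond 140 kb appear in knockdown replicates 1 and 2 only.

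Sites called in all 6 libraries made up 14 of the 36 member sites (38.9%), beside 18.2% of all merged sites, a difference that was not tested. They were 5 of 16 in alpha, 2 of 6 in beta and 7 of 14 in gamma. In the 1 Mb on each side of the locus the share was 27.4% of 212 sites. Another 9 member sites (25%) were called in a single library, against 38.3% over the genome. Sites called in all 3 knockdown libraries and no control library numbered 2 (5.56%, against 7.72% over the genome), and 0 were called in all 3 control libraries only (0.131% over the genome). Counting by number of libraries, 20 of the 36 sites had more knockdown than control calls and 2 of the 36 the reverse. Both are smaller shares than the 65.4% and 12.1% of all sites.

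The strongest peaks of each array lay at sites called in all 6 libraries, but not all such sites were strong. Alpha site 4 stood at percentiles 41.4, 18.1 and 14.9 in control and 55.2, 63.1 and 50.9 in knockdown. Beta site 1, chr5:140419543-140421004, was the strongest of its array, with a score at percentiles 95.5, 95.9 and 89.2 of the control lists and 96.0, 97.9 and 97.1 of the knockdown lists. The whole site was covered over 873, 661 and 1203 bp in control and 1456, 1453 and 1334 bp in knockdown. It lies across the start of the beta window: control replicates 1 and 2 each held a further peak there whose midpoint lay at -170.5 and -115.0 bp relative to the border, outside the window. These 363 and 156 bp are in the values of the site but not in those of the array, which hold the member peaks of 510 and 505 bp. In the other 4 libraries 1 wide peak took its place, with its midpoint 268.5 to 337.0 bp inside. Beta site 3, chr5:140473994-140474572, was the other beta site in all libraries, at percentiles 60.1, 51.9 and 63.2 in control and 79.4, 84.9 and 84.6 in knockdown. Percentiles come from lists of different length and show rank within a list only.

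In alpha the strongest site was site 5, chr5:140305520-140306825. Its percentiles were 88.1, 89.8 and 89.2 in control and 91.1, 95.5 and 92.8 in knockdown, and its peaks covered 840, 666 and 1187 bp in control and 1011, 1221 and 1187 bp in knockdown. Control replicate 3 equalled knockdown replicate 3 in width, so the groups overlapped at this site. The widest alpha site was site 7, chr5:140345545-140346965, at 1421 bp, with 426, 911 and 980 bp covered in control and 1200, 1377 and 1006 bp in knockdown, which did not overlap. Site 11, chr5:140365526-140366216, was narrower, with 336, 196 and 190 bp in control and 679, 542 and 314 bp in knockdown, where the lowest knockdown value was under the highest control value.

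In gamma the strongest was site 5, chr5:140855258-140856419, at percentiles 84.9, 90.5 and 91.5 in control and 94.4, 94.0 and 94.0 in knockdown. It covered 702, 1014 and 966 bp in control and 1096, 1139 and 1071 bp in knockdown, with no overlap. Site 13, chr5:140891754-140894595, was the widest of all member sites at 2842 bp. It held 3, 2 and 2 separate peaks in control and 1, 1 and 2 in knockdown, while its covered bases overlapped, at 1883, 2058 and 2267 bp against 2564, 2597 and 2154 bp. Site 1, chr5:140699811-140700883, lies across the start of the gamma window and covered 750, 972 and 842 bp in control and 928, 911 and 948 bp in knockdown. All its peaks had midpoints 250 to 397 bp inside the window. At the far border, every library held a peak whose midpoint was 1043.0 to 1134.0 bp beyond the window, and these were not members.

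The 2 sites called in all knockdown and no control libraries ranked between percentiles 20.5 and 67.1 of the knockdown lists. Alpha site 16, chr5:140383553-140384180, covered 628, 377 and 423 bp in the knockdown libraries, at percentiles 48.4, 67.1 and 42.3 of their lists. Gamma site 4, chr5:140850964-140851141, covered 143, 161 and 138 bp, at percentiles 44.3, 20.5 and 37.1. Both were without a peak in all 3 control lists, which says only that none was called there. Neither was called in all 3 knockdown libraries once the lists had equal length, so that the count of such sites was 0. Another 9 sites had no control call, of which 7 were called in 1 knockdown library and 2 in 2.

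At the 14 sites called throughout, peaks were wider in knockdown to the degree seen across the genome. Covered bases were higher in every knockdown than every control library at 7 of 14 sites and lower at 0, against 47.2% and 0.804% of all 28749 such sites. The median ratio of covered bases was 1.374 over the 14 sites and 1.369 over the genome. The arrays were not alike in this: the 7 higher sites were alpha sites 4, 6 and 7, beta sites 1 and 3, and gamma sites 2 and 5. Of the 14 sites alpha had 5, beta 2 and gamma 7, so overlap was more frequent in gamma. Gamma site 10 alone had a lower mean in knockdown, at 671.7 against 725.7 bp. The difference between arrays at these sites was not tested. Their median width of 1024 bp was above the 873 bp of all such sites, and single-library member sites were 180 bp wide at the median against 174 bp. The largest relative gain in this group was at alpha site 4, chr5:140254762-140255564, named after its values were seen, with 223, 222 and 126 bp in control and 798, 516 and 752 bp in knockdown.

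**Figure D5:**
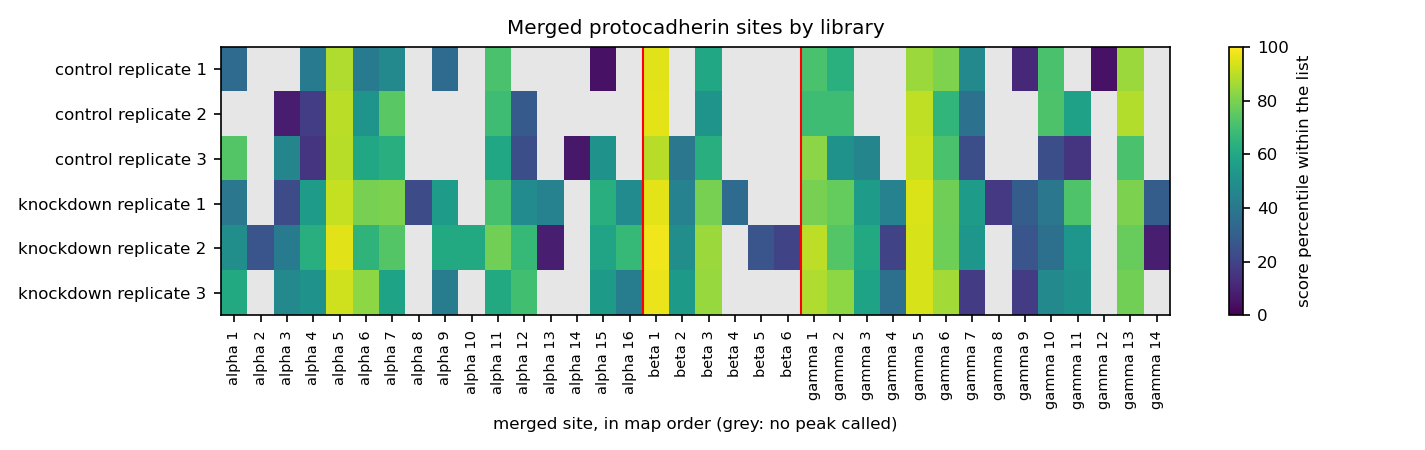
Score percentile within each list (colour, 0 to 100) of the 36 merged sites in map order (columns) by library (rows), grey where no peak was called; red lines part the arrays, and a site with several peaks shows its highest. Beta site 1, alpha site 5 and gamma site 5 stay at or above percentile 84.9 in all 6 libraries, and grey cells are more frequent in the control rows.

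The surroundings held more peaks in knockdown too. The 1 Mb before alpha held 43, 44 and 53 control peaks and 78, 71 and 68 knockdown peaks (ratio 1.55), and the 1 Mb after gamma 37, 47 and 56 against 98, 73 and 71 (ratio 1.729), beside 1.438 for the arrays. The log2 ratio of array peaks to flank peaks was 0.19 lower in knockdown (-2.12 ± 0.23 against -2.31 ± 0.19, SD, n = 3), with overlapping groups (exact permutation test, two-sided, p = 0.4). By covered bases it was 0.09 lower, again with overlap (exact permutation test, two-sided, p = 0.2). The gap between alpha and beta held 1, 1 and 0 control peaks, the 2 being those beside beta site 1 described above, and no knockdown peak, and the gap between beta and gamma held none in any library.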

How the data were processed

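ATAC-seq was measured in 3 control and 3 ZNF436 knockdown libraries of H9-derived cardiomyocytes, grouped by title. The authors deposited 1 peak list per library, with start, end and an integer score. Bowtie2 2.4.5, bedtools 2.30.0 and hg19 are named per the submitters' processing notes, without role or order. Peak names begin with MACS and carry 1 library's name, per the file contents. For the caller's version and threshold, a Tn5 shift and duplicate removal, the value is not given in the sources used here. Scores in the deposited lists are the caller's own and served for ranks inside 1 list. No depth is recorded.

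Peaks were assigned by midpoint. Covered bases are the union of a library's member peaks. Peaks overlapping by at least 1 bp were merged into sites. For single values an exact permutation test over the 6 libraries was used (20 permutations, two-sided, smallest p 0.1). Windows with a mean of at least 2 peaks entered limma 3.58.1 (trend, robust, R 4.3.3) as log2((peaks + 0.5) / list total × median total), with Benjamini-Hochberg adjustment over all windows. Python 3.11.15, pandas 2.3.3 and numpy 2.4.6 did the rest. Merging and the limma step were tested on simulated data.

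The members, lists and tests were chosen with earlier results of these data known. Named sites are, per array, those called in all 3 libraries of 1 group only, the 3 strongest by lowest score percentile of those in all 6 libraries, and the widest. Sites 4 and 6 of alpha and sites 2 and 10 of gamma fall outside this rule and were named after their values were seen. Promoters came from RefSeq (GRCh38.p14). Gene positions and sequences of the sites on hg19 were not analysed here. Alternatives were equal-length lists, the higher-scoring 50% of each list, each library left out, assignment by overlap, other pseudocounts, scalings, filters and window sizes, covered bases, a replicate block and other merging rules.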

Additional observations from a re-analysis of the deposited data

How the results depend on the processing

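Covered bases per array kept their direction under every alternative run, as found and as shares, with a ratio as found of 1.979 to 2.507 in alpha and 1.265 to 1.386 in gamma when 1 library was left out (beta 1.925 to 3.305). Peak counts did not: with equal-length lists the ratio was 0.821 in gamma and 0.947 over the 3 arrays. The alpha share of the list was 1.091 times that of control with equal-length lists and 1.27 times in the higher-scoring 50% of each list. The beta share moved across 1 when a library was left out (0.854 to 1.036). The log2 difference of alpha over beta was 0.07 with equal-length lists, 0.92 in that 50%, 0.16 by overlap of 1 bp and 0.05 with a pseudocount of 1. It was 0.04 by covered bases with 0.5 kb added and -0.11 to 0.07 with a library left out, so its sign is not settled. Beta over gamma was -0.14 in that 50%. Sites called in knockdown only numbered 0 with equal-length lists, 4 when 2 of 3 libraries sufficed, and 2 to 4 with a library left out. Sites in all libraries numbered 8 in that 50% and 14 to 17 with a library left out.

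In the limma fit, alpha changed by 0.07 with equal-length lists, 0.26 in that 50%, 0.66 without scaling and 0.13 by covered bases. Beta changed by 0.66 without scaling, 0.08 by covered bases, -0.33 by overlap and -0.67 in that 50% (limma adjusted p = 0.153). Gamma changed by 0.31 without scaling and -0.52 by covered bases, and by -0.69 to -0.35 with a library left out. Windows called higher, 402 in the analysis reported, numbered 91 with equal-length lists, 215 in that 50%, 6220 without scaling, 692 by covered bases and 9 to 815 with a library left out, the fewest without knockdown replicate 1. Windows called lower, 521 as reported, numbered 144 with equal-length lists, 28 without scaling, 292 in 1 Mb bins, 1172 by covered bases and 91 to 689 with a library left out, again fewest without knockdown replicate 1. The cause of these shifts was not tested. Over all alternatives and results, 274 values kept their direction and side of the threshold or stayed close, 23 turned direction, 23 moved and 2 newly passed with the direction kept. Alpha without scaling also passed (limma adjusted p = 0.0247) but is counted among those that turned. The exact permutation tests cannot give a p under 0.1, so for them only the direction could change. A value of no change was counted as kept.

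Same-numbered libraries deviated together with a correlation of 0.0, 0.05 and 0.02, and libraries of different number with -0.06 to 0.04. No pairing by number was apparent, but windows with so few peaks cannot exclude it. With a replicate block, limma called 610 windows higher and 622 lower, gamma had an adjusted p of 0.0868, and no array's call changed. The unknown depth limits every count given.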
